A study of Mus musculus with 68 samples.

Results

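Amino acid transporter genes of the Slc1, Slc3, Slc7, Slc36 and Slc38 families were followed in mesenchymal stromal cells grown from long bones of Ezh2 heterozygous and control mice. All rows of the deposited gene table whose mouse symbol begins with Slc1a, Slc3a, Slc7a, Slc36a or Slc38a and a number were taken, pseudogenes left out. This gave 41 of the 27179 rows. Of these, 39 are transporter genes, with 7 in Slc1, 2 in Slc3, 15 in Slc7, 4 in Slc36 and 11 in Slc38. The other 2 are neighbouring genes named for the opposite strand, Slc7a6os and Slc36a1os, and are given apart. The families were chosen by the level of Slc38a1, which ranked low in Het 3M against WT 3M cultures, so the values of that comparison are given below as a description with no test.

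Slc1 carriers take up glutamate, aspartate or small neutral amino acids together with sodium. Slc7 holds the cationic amino acid carriers and the light chains of heteromeric exchangers, which need an Slc3 heavy chain to reach the plasma membrane. Slc36 carriers couple amino acids to protons, partly at the lysosome, and Slc38 carriers move glutamine and other neutral amino acids with sodium. Amino acids taken up in these ways feed the synthesis of collagen and other matrix proteins, glutathione synthesis and the lysosomal amino acid sensing that controls the kinase complex mTORC1. Shortage of amino acids raises the transcription factor ATF4, which is known to act on several of these carrier genes.

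Het 12M comprised 6 cultures (S1, S9, S11, S15, S16 and S17) from Ezh2fl/+:Prxx-1-Cre mice aged 12 months, and WT 12M comprised 4 (S2, S6, S7 and S13) from Ezh2+/+:Prrx-1-Cre mice of that age. Het 3M comprised 3 cultures (S8, S10 and S14) and WT 3M comprised 4 (S3, S4, S5 and S12), of the same genotypes at 3 months. By label, S17 was male and the other Het 12M cultures female, and WT 12M S2 and S13 were male and S6 and S7 female. Het 3M S8 and S10 were labelled male and S14 female, and WT 3M S5 and S12 male and S3 and S4 female. Labelled sex was thus not balanced between the groups. Both genotypes carried the Cre recombinase, which the Prrx1 promoter drives in limb mesenchyme, and Het cells could lose 1 floxed allele of Ezh2, the methyltransferase of Polycomb repressive complex 2. All cells were grown in regular growth medium and released with trypsin. The labels do not say whether a culture came from 1 mouse, so p-values measure the spread between these cultures. Het 3M S8 and S10 were the most alike of all pairs of cultures, with a chi-square per degree of freedom of 17.4 between their counts. It was 138 between Het 3M S8 and S14 and 160 between S10 and S14. WT 3M S3 and S4 were the next most alike, at 38.6. Whether such a pair came from 1 mouse cannot be told from the labels.

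Depth was 13687876 to 28597221 counts per culture. Levels are given as CPM, the counts of a gene relative to its library's total in tested genes after TMM scaling. Ezh2 itself averaged 17.7 ± 5.52 CPM in Het 12M and 19.8 ± 12.3 CPM in WT 12M (SD, n = 6 and 4), and 11.1 ± 2.29 CPM in Het 3M and 12.6 ± 2.32 CPM in WT 3M (SD, n = 3 and 4). Neither genotype difference passed the test, with log2 differences of -0.16 ± 0.35 (SE) at 12 months and -0.19 ± 0.42 (SE) at 3 months, and the table does not show whether reads came from the deleted part of the gene. All 15 stromal markers had reads in every culture. Het 12M S9 held 42349 CPM of 14 macrophage markers together, against 36.4 to 2986 CPM in the 16 other cultures. Het 12M S15 held 1406 CPM of 9 mitochondrial transcripts, against 15347 CPM or more elsewhere, and WT 12M S6 held 1317 CPM of 11 Schwann cell markers, against at most 116 CPM elsewhere. Sex-linked transcripts went against the labelled sex in the WT 12M libraries. Xist stood at 363 CPM in S2 and 295 CPM in S13, both given as male, while S6, given as female, had 0.192 CPM of it together with Y-linked transcripts. S7, labelled female, had both, with 81.6 CPM of Xist and a mean of 35.0 CPM over 4 Y-linked genes. Whether libraries were exchanged or mixed cannot be told from the counts, and this touches each comparison with WT 12M.

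Of the 39 transporter genes, 27 passed the filter on low counts and were tested. These were 6 of 7 in Slc1, 2 of 2 in Slc3, 9 of 15 in Slc7, 3 of 4 in Slc36 and 7 of 11 in Slc38. The 12 others reached at most 0.647 CPM in any culture and had between 1 and 94 reads over all cultures together. They include Slc1a7, a glutamate carrier best known from the retina, Slc7a9, a renal cystine exchanger, and Slc38a3 and Slc38a5, system N glutamine carriers. Among the tested genes 24 had a mean of at least 1 CPM. Below that mean were Slc3a1, Slc36a2 and Slc38a4. Slc7a6os ran between 17.97 CPM in WT 12M S2 and 50.4 CPM in Het 12M S15, and Slc36a1os had 0 reads in all 17 libraries.

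Per kilobase of exon, the highest member of each family was Slc3a2, Slc38a10, Slc1a6, Slc7a5 and Slc36a1. Slc3a2, the CD98 heavy chain that pairs with most Slc7 light chains, averaged 62.5 CPM per kilobase over the 17 cultures. Slc38a10 averaged 52.6 CPM per kilobase, and Slc1a6, a glutamate carrier best known from Purkinje neurons, averaged 38.1 CPM per kilobase. Slc38a2, a sodium-coupled carrier of small neutral amino acids, averaged 26.3 CPM per kilobase. Close behind stood the small neutral amino acid exchanger Slc1a4 at 24.5 CPM per kilobase and the glutamine exchanger Slc1a5 at 22.6. Slc7a5, the light chain that imports large neutral amino acids such as leucine, averaged 17.5 CPM per kilobase, and the cationic carrier Slc7a2 averaged 16.3. The cultures thus held far more message per length for the shared heavy chain than for any single light chain, while the second heavy chain, Slc3a1, stood at 0.0958 CPM per kilobase. The lysosomal proton-coupled carrier Slc36a1 averaged 4.71 CPM per kilobase, Slc38a1 3.06 and the cystine and glutamate exchanger light chain Slc7a11 0.305. Length here is that of all annotated exons of a gene together, which can exceed that of a single transcript. It was 17236 bases for Slc38a1 and 13922 for Slc7a11, against 2152 for Slc1a6, so levels per kilobase depend on the annotation.

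**Figure D1:**
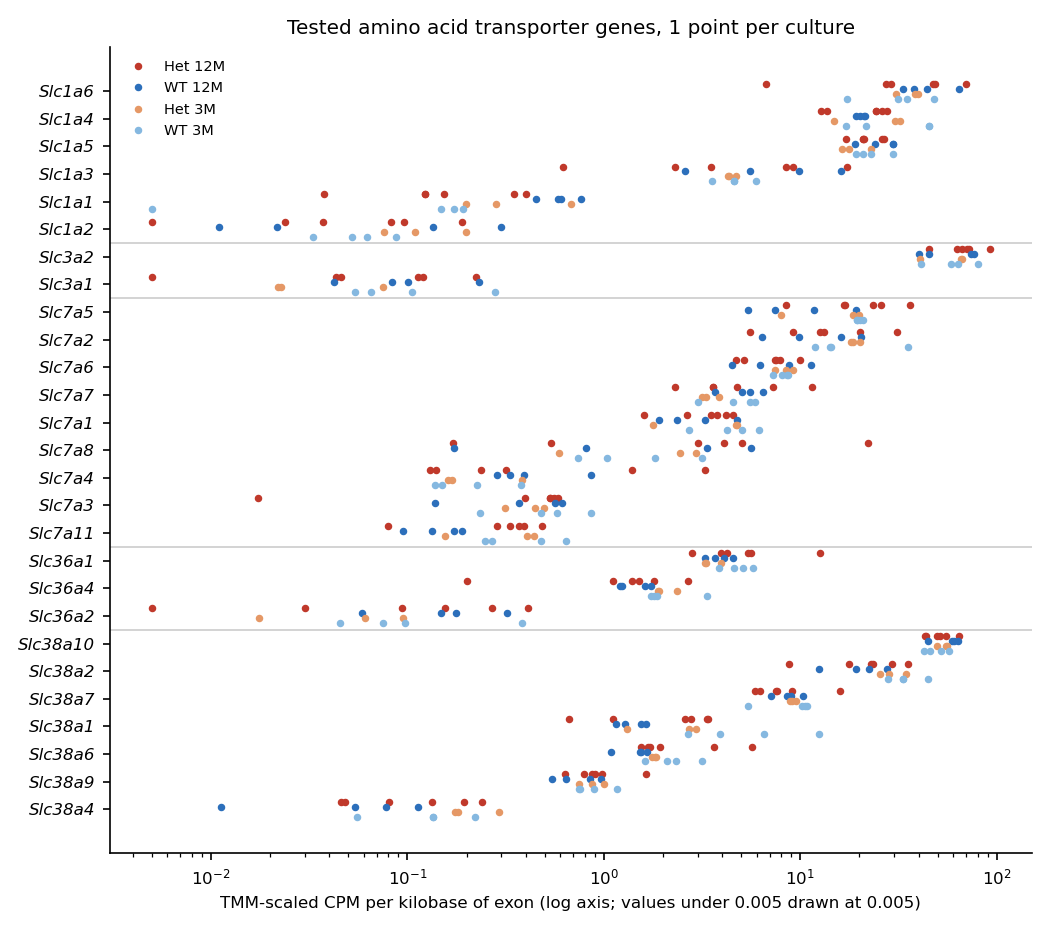
Levels of the 27 tested transporter genes in TMM-scaled CPM per kilobase of exon on a log axis, with 1 point per culture coloured by group and genes ordered by mean within family. Slc3a2, Slc38a10 and Slc1a6 lead with means of 62.5, 52.6 and 38.1 CPM per kilobase, and the spread within Het 12M is wide for Slc7a8, Slc1a3 and Slc38a1.

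Several of the highest members differed little between groups. Slc38a10 had a lowest, median and highest level of 276, 323 and 414 CPM in Het 12M, against 288, 380, 388 and 409 CPM in WT 12M. Its log2 difference was -0.16 ± 0.17 (SE), with a 95% interval of -0.51 to 0.20. Slc3a2 had 160.1, 243 and 326 CPM as lowest, median and highest in Het 12M, against 142, 159.8, 261 and 270.3 CPM in WT 12M. Its log2 difference was 0.22 ± 0.25 (SE), with a 95% interval of -0.32 to 0.75. The ranges overlap for both genes. Slc1a6 ran from 14.4 CPM in S9 to 150.5 CPM in S11 with a median of 82.3 CPM in Het 12M, against 71.3, 81.8, 95.2 and 138 CPM in WT 12M. The S9 value, from the macrophage-rich culture, was the lowest of all 17. At 3 months Slc38a10 had 359.5, 354 and 318 CPM in Het 3M, against 334, 368, 294 and 274 CPM in WT 3M. Slc3a2 had 231, 234 and 143 CPM in Het 3M, against 205, 224, 145 and 282 CPM in WT 3M.

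Slc38a1, a sodium-coupled glutamine carrier at chr15:96571418-96643438 on the minus strand (mm10, RefSeq), had its highest mean in WT 3M and its lowest in WT 12M. It had 50.7, 46.6 and 22.7 CPM in Het 3M S8, S10 and S14, against 67.4, 46.0, 113 and 216 CPM in WT 3M S3, S4, S5 and S12. S12 stood far above every other culture, and S4 lay inside the Het range. Group means were 40.0 ± 15.1 CPM in Het 3M and 110.5 ± 75.4 CPM in WT 3M (SD, n = 3 and 4). The log2 difference was -1.47 ± 0.56 (SE), and without S12 it was -0.90. Among members with a mean of at least 1 CPM, the next largest differences downward were those of Slc36a1 at -0.46 ± 0.37 and Slc7a7, a light chain exporting cationic amino acids, at -0.46 ± 0.43 (log2 ± SE). The largest upward among them were those of the glutamate carrier Slc1a1 at 1.58 ± 0.88, Slc1a2 at 1.12 ± 1.06 and Slc7a8 at 0.23 ± 1.19 (log2 ± SE). The difference of Slc7a8 was -0.17 without Het 3M S8, and that of Slc1a1 was 0.90 without Het 3M S14. Among the 27 genes 9 were fitted higher and 18 lower in Het 3M, with a median of -0.10, where all 14897 tested genes had a median of -0.02 and 52.5% were fitted lower. The groups did not overlap for 1 gene, Slc1a1, where 6.78% of all genes did not overlap, 3.21% upward and 3.57% downward. At an unadjusted p below 0.05 stood 1.57% of all genes. These values belong to the comparison that chose the families and nothing is read from them.

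At 12 months, the light chains Slc7a5 and Slc7a11 and the carrier Slc38a6 were fitted higher and Slc1a1 lower in Het cultures, and none of these differences passed the test. Of 27 transporter genes 0 had an adjusted p below 0.05 in edgeR's quasi-likelihood test, as for all 14897 genes, of which 0.0% were called. At an unadjusted p below 0.05 there were 4 members, where 8.34% of all genes stood past that level. Of the 4, 3 were higher, where 3.42% of all genes were, and 1 was lower, where 4.92% were. DESeq2 called 106 genes, or 0.723%, and 0 members. Limma voom with quality weights called 169 genes, or 1.13%, and 1 member, Slc7a5.

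Slc7a5 lies at chr8:121881146-121907686 on the minus strand (mm10). It had 62.5, 61.8, 95.6, 31.5, 86.7 and 134 CPM in Het 12M S1, S9, S11, S15, S16 and S17, against 27.6, 71.4, 43.3 and 19.999 CPM in WT 12M S2, S6, S7 and S13. The lowest Het culture was S15 and the highest WT culture was S6, and these 2 made the ranges overlap. The log2 difference was 0.96 ± 0.39 (SE; adjusted p = 0.534, edgeR), 1.37 without S6 and 1.65 without S6, S9 and S15. Under voom with quality weights it was 1.39 with an adjusted p of 0.0462. Voom gave the 2 cultures behind the overlap low weights, 0.118 for S15 and 0.327 for S6, so its call rests mainly on the others.

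Slc7a11, which imports cystine for glutathione synthesis, lies at chr3:50364936-50499087 on the minus strand (mm10). It had 4.65, 5.45, 3.97, 1.11, 5.17 and 6.70 CPM in the Het 12M cultures in the same order. It had 2.41, 2.64, 1.32 and 1.85 CPM in the WT 12M cultures. All Het cultures other than S15 were above every WT culture. The log2 difference was 1.13 ± 0.46 (SE; adjusted p = 0.534, edgeR).

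Slc38a6, a little studied member of the glutamine carrier family, had 14.95, 44.0, 13.1, 12.0, 28.4 and 13.3 CPM in Het 12M, against 11.9, 8.50, 12.97 and 12.1 CPM in WT 12M. S9 and S16 stood above the rest, and the other 4 Het cultures lay close to the WT values. The log2 difference was 0.88 ± 0.35 (SE; adjusted p = 0.524, edgeR) and 0.53 without S9. That culture also held the highest macrophage marker sum, whose part in the difference was not tested.

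Slc1a1, a neuronal and epithelial glutamate carrier that also takes up cysteine, lies at chr19:28835135-28913960 on the plus strand (mm10). It had 1.02, 0.311, 1.27, 2.88, 3.31 and 1.02 CPM in Het 12M, against 3.73, 4.85, 5.01 and 6.32 CPM in WT 12M. Each WT culture was above each Het culture, and it was the 1 member whose groups did not overlap, where 1.32% of all genes did not overlap and 0.853% did so downward. The log2 difference was -1.61 ± 0.73 (SE; adjusted p = 0.588, edgeR). Its exons overlap those of 4430402I18Rik on the other strand over 2631 bases, and the library kit does not mark strand, so reads of the 2 genes cannot be told apart there. 4430402I18Rik itself ran between 1.05 and 4.25 CPM, with a log2 difference of 0.33 at 12 months. The next members downward by their p were Slc1a5, at 92.4 ± 15.2 CPM in Het 12M and 106 ± 21.2 CPM in WT 12M (SD, n = 6 and 4), with a log2 difference of -0.20 ± 0.19 (SE), and Slc38a10, given above. Slc38a1 averaged 39.9 ± 19.9 CPM in Het 12M and 24.2 ± 3.85 CPM in WT 12M (SD, n = 6 and 4). Its log2 difference of 0.72 ± 0.46 (SE; adjusted p = 0.695, edgeR) comes from cultures that had no part in choosing the families.

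**Figure D2:**
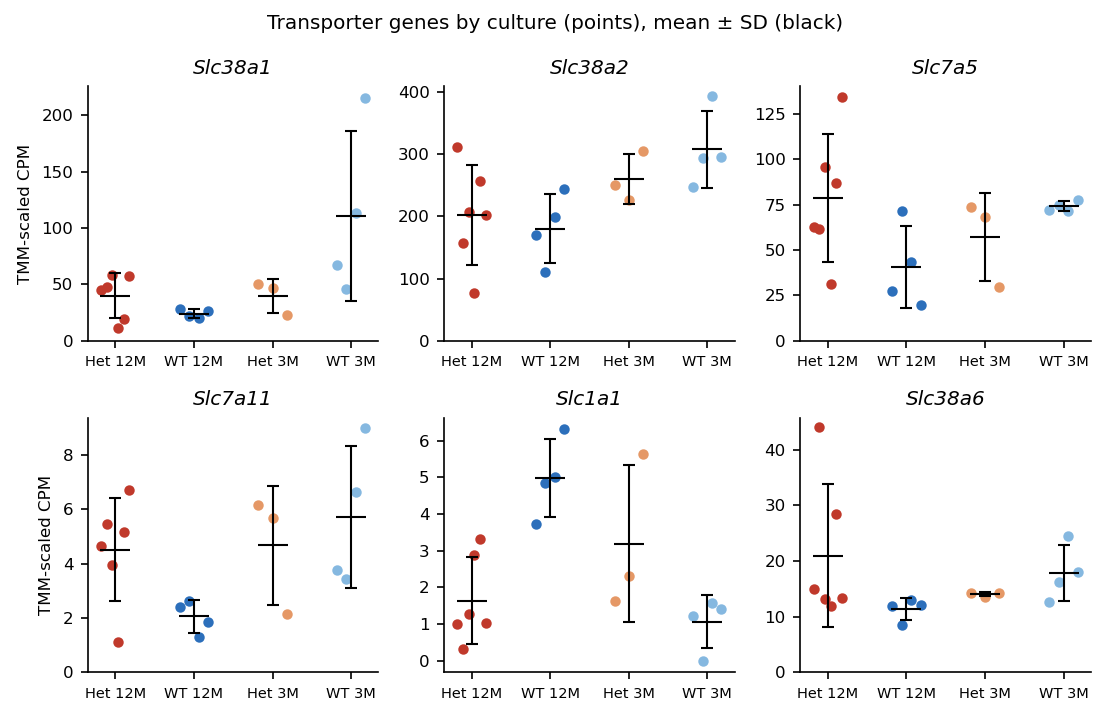
TMM-scaled CPM of 6 transporter genes by group, with 1 point per culture and black bars for the mean and SD. Slc1a1 lies at 3.73 CPM or more in WT 12M and at 3.31 CPM or less in Het 12M, and Slc38a1 reaches 216 CPM in 1 WT 3M culture.

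By family, 8 of 9 Slc7 genes, 5 of 7 Slc38 genes, 1 of 3 Slc36 genes, 1 of 2 Slc3 genes and 1 of 6 Slc1 genes were fitted higher in Het 12M than in WT 12M. Over all 27 genes 16 were fitted higher, a share of 59.3% where 55.7% of all tested genes were, and 11 lower, a share of 40.7% where 44.3% were. The median log2 difference was 0.09, against 0.05 over all genes. Without S6, S9 and S15, which stood apart in markers, 6 members did not overlap between the groups, where 10.3% of all genes did not. These were Slc1a1, Slc1a4, Slc7a1, Slc7a5, Slc7a11 and Slc38a6. Marker lists also differed between these groups, with 10 of 10 Schwann cell, 8 of 9 chondrocyte and 6 of 7 osteoblast markers fitted lower and 14 of 14 macrophage markers fitted higher in Het 12M. Median log2 differences of those lists were -3.97, -2.11, -0.59 and 2.11. Fitted lower too were 7 of 7 smooth muscle markers, 8 of 9 mitochondrial transcripts and 7 of 8 cell-cycle genes, with medians of -0.62, -0.31 and -0.45. Endothelial, stromal and adipocyte markers were more mixed. The summed levels show that 1 culture each stands behind the macrophage and the Schwann cell difference. Macrophage markers summed to 36.4 to 2612 CPM in the Het 12M cultures other than S9, against 48.3 to 2986 CPM in WT 12M, and Schwann cell markers to 22.8 to 101 CPM in Het 12M, against 31.7 to 111 CPM in the WT 12M cultures other than S6. Their part in the transporter values was not tested, and in bulk RNA fewer cells of a type and less RNA per cell cannot be told apart.

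In WT cultures, Slc38a1, Slc7a11, Slc38a2 and Slc7a5 were lower at 12 than at 3 months and Slc1a1 was higher, with no overlap between the ages for any of these 5 genes. In edgeR's test 0 of 27 members and 0.0% of all genes had an adjusted p below 0.05, and 4 members had an unadjusted p below 0.05 where 8.2% of all genes did. Slc1a1 was higher, where 4.66% of all genes were, and Slc7a11, Slc38a1 and Slc38a2 were lower, where 3.54% were. DESeq2 called 53 genes, or 0.361%, and of the members only Slc38a1. Voom with quality weights called 1481 genes, 9.94% of those tested, and 3 members, Slc1a1, Slc7a5 and Slc38a1. For Slc38a1 nothing is read from these calls, since its WT 3M values had a part in choosing the families. The 5 non-overlapping members are a share of 18.5%, where 8.1% of all genes did not overlap, 4.03% upward and 4.07% downward. Slc38a1 is counted among the 5 and among the 4 above, so the choice of the families fixed part of both counts and they are descriptions. In all, 10 members were fitted higher, where 53.8% of all genes were, and 17 lower, where 46.2% were. This comparison shares WT 12M with the one above and WT 3M with the one that chose the families.

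Slc38a1 had 28.2, 22.1, 19.9 and 26.6 CPM in WT 12M, all below the 46.0 to 216 CPM of WT 3M. The log2 difference was -2.19 ± 0.52 (SE) and -1.64 without WT 3M S12, and since WT 3M values chose this gene, it is a description. Slc38a2 had 170.0, 110.0, 198 and 244 CPM in WT 12M, against 248, 294, 394 and 295 CPM in WT 3M. The ages were separated by a narrow gap, and the log2 difference was -0.77 ± 0.34 (SE; adjusted p = 0.594, edgeR). Slc7a11 had the WT 12M values given above, all below the 3.77, 3.45, 6.64 and 8.98 CPM of WT 3M. Its log2 difference was -1.47 ± 0.50 (SE; adjusted p = 0.555, edgeR). Slc7a5 stood at 72.2, 74.8, 71.6 and 77.7 CPM in WT 3M, so that WT 12M S6 at 71.4 CPM lay just below the lowest of them. The WT 3M values varied far less than those of any other group, and the log2 difference was -0.87 ± 0.42 (SE; adjusted p = 0.612, edgeR).

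Slc1a1 had 1.23, 0, 1.59 and 1.42 CPM in WT 3M, below all WT 12M cultures, with a log2 difference of 2.22 ± 0.84 (SE; adjusted p = 0.569, edgeR). In the overlapping 4430402I18Rik the log2 difference was -0.33. The other members that ranked highest upward were Slc1a3, an astrocyte-type glutamate carrier, and Slc7a4, a relative of the cationic carriers with no established substrate. Slc1a3 had 83.6, 22.1, 47.1 and 138 CPM in WT 12M, against 30.4, 51.0, 39.2 and 39.1 CPM in WT 3M. Slc7a4 had 3.56, 1.63, 1.19 and 1.38 CPM in WT 12M, against 0.574, 0.936, 0.625 and 1.58 CPM in WT 3M. Both ranges overlapped, with log2 differences of 0.86 ± 0.70 and 1.05 ± 0.89 (SE).

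Of the Slc38 genes 6 of 7 and of the Slc7 genes 6 of 9 were fitted lower in WT 12M than in WT 3M, with family medians of -0.65 and -0.35. In Slc1, 5 of 6 were fitted higher, with a median of 0.66, while over all tested genes the median was 0.04. Of the other cell type and state lists, 8 of 8 cell-cycle genes, 9 of 9 mitochondrial transcripts, 10 of 10 Schwann cell markers and 5 of 7 osteoblast markers were fitted higher in WT 12M. Their medians were 1.21, 0.57, 2.90 and 1.42. Also fitted higher were 13 of 14 macrophage and 6 of 7 smooth muscle markers, with medians of 0.65 and 0.23. Endothelial markers went the other way, with 8 of 9 fitted lower and a median of -1.83. They summed to 6.87 to 23.1 CPM in WT 12M, against 8.30 to 89.4 CPM in WT 3M. Chondrocyte, adipocyte and stromal markers were more mixed. Schwann cell markers summed to 1317 CPM in S6 and to 31.7 to 111 CPM in the other WT 12M cultures, against 33.9 to 111 CPM in WT 3M. Cell-cycle genes summed to 85.8, 504, 105 and 419 CPM in WT 12M S2, S6, S7 and S13, against 79.5 to 202 CPM in WT 3M, so S6 and S13 alone stood above the younger cultures. For all of these lists, the part in the transporter values was not tested. Leaving out S6, S9 and S15 gave 6 non-overlapping members, the same 5 and Slc36a4, where 13.2% of all genes did not overlap.

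**Figure D3:**
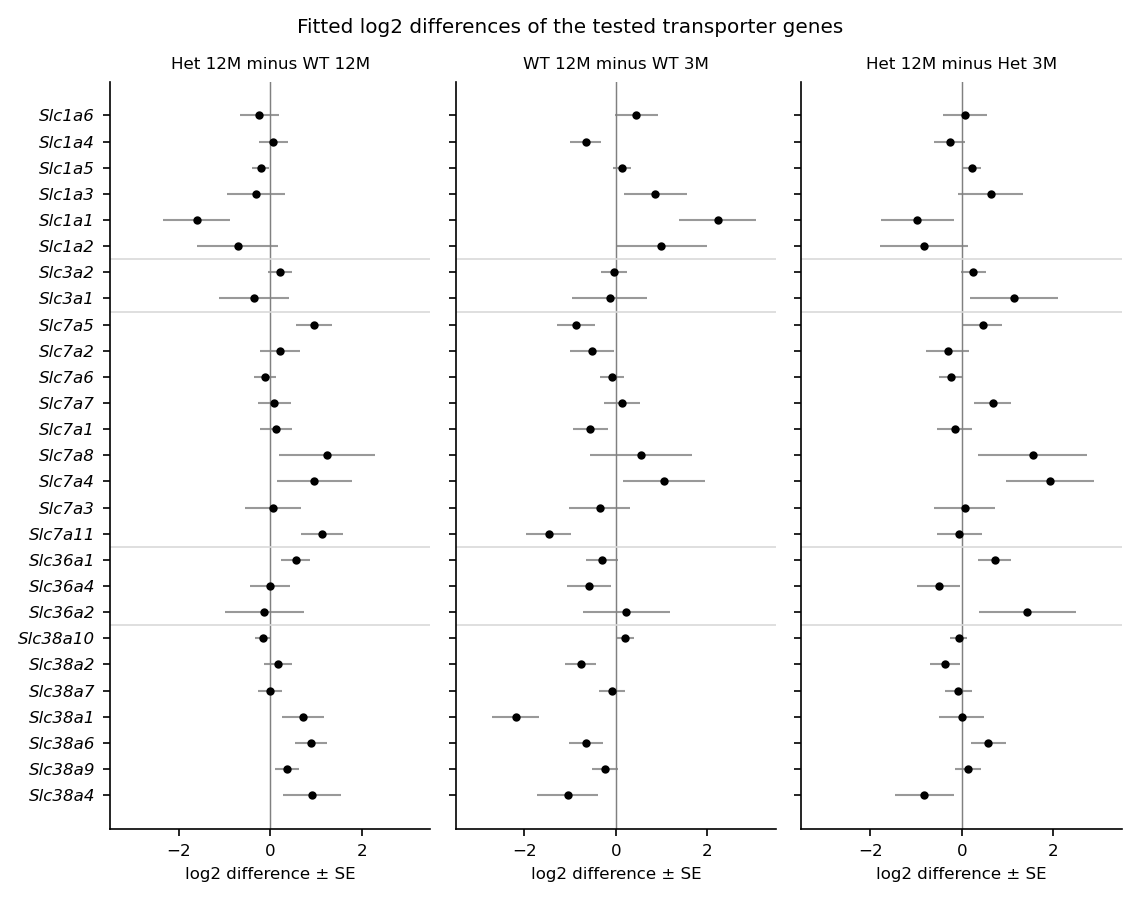
Fitted log2 differences with standard errors for the 27 tested transporter genes in 3 comparisons, ordered as in the plot of levels. WT 12M minus WT 3M and Het 12M minus Het 3M share cultures with the comparison that chose the families, so Slc38a1 is a description there. Slc38a1 at -2.19 and Slc1a1 at 2.22 lie farthest from 0 in WT 12M minus WT 3M, and Slc1a1 at -1.61 in Het 12M minus WT 12M.

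In Het cultures no transporter gene passed the test between 12 and 3 months. In edgeR's test 0 of 27 members and 0.0% of all genes had an adjusted p below 0.05, and 0 members had an unadjusted p below 0.05 where 3.3% of all genes did, 1.58% upward and 1.73% downward. DESeq2 and voom each called 1 gene and 0 members. DESeq2 had 2 members, Slc7a4 and Slc36a1, at an unadjusted p below 0.05, where 734 of all genes stood past that level. The ages overlapped for all 27 members, where 1.91% of all genes did not overlap. The smallest adjusted p of a member was 0.946.

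Slc36a1 had 15.9, 70.9, 30.3, 22.1, 31.7 and 23.7 CPM in Het 12M S1, S9, S11, S15, S16 and S17, against 22.1, 18.4 and 18.7 CPM in Het 3M S8, S10 and S14. Its log2 difference was 0.72 ± 0.35 (SE), and 0.32 without S9. Slc7a4 had 0.581, 5.76, 1.32, 13.5, 0.983 and 0.545 CPM in Het 12M, against 0.697, 0.670 and 1.59 CPM in Het 3M. Here S9 and S15 stood far above the rest, and the log2 difference of 1.93 ± 0.96 (SE) became -0.20 without S6, S9 and S15. Slc7a7 had 11.9, 38.2, 24.0, 7.65, 11.8 and 15.8 CPM in Het 12M, against 10.4, 11.04 and 12.9 CPM in Het 3M, with a log2 difference of 0.67 ± 0.41 (SE), and 0.31 without S9. Its highest value was again that of S9. Downward, Slc38a4, a carrier of neutral and cationic amino acids, averaged 0.526 ± 0.340 CPM in Het 12M and 0.924 ± 0.284 CPM in Het 3M (SD, n = 6 and 3). Slc1a1 and Slc38a2 followed, with log2 differences of -0.97 ± 0.79 and -0.37 ± 0.33 (SE). For Slc38a2 the values were 312, 157, 208, 77.3, 257 and 203 CPM in Het 12M, against 251, 226 and 305 CPM in Het 3M. Slc38a1 had 44.8, 48.1, 58.1, 11.5, 19.1 and 57.7 CPM in Het 12M, and its log2 difference was -0.00 ± 0.50 (SE), with a 95% interval of -1.05 to 1.04.

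The genotype by age interaction asks whether the Het minus WT difference was different at 12 and at 3 months. In edgeR 0 of 27 members and 0.0% of all genes passed, and 4 members had an unadjusted p below 0.05, where 5.77% of all genes did, 2.5% upward and 3.28% downward. DESeq2 called 35 genes, or 0.239%, and 0 members. Voom called 885 genes, or 5.94%, and 1 member, Slc7a5, at an adjusted p of 0.0252. Its quality weights were 8.88 for Het 3M S8 and 7.32 for WT 3M S3, so single cultures weighed heavily at 3 months. The next largest weights at that age were 2.955 for Het 3M S10 and 1.96 for WT 3M S4, the cultures most like S8 and S3. The 4 members were Slc38a1 at 2.19 ± 0.72, Slc7a5 at 1.33 ± 0.60 and Slc38a6 at 1.23 ± 0.54 upward, and Slc1a1 at -3.19 ± 1.14 downward (log2 ± SE). In edgeR the adjusted p was 0.840 for Slc7a5 and 0.819 for Slc38a6. Each interaction value contains the 3M difference of the comparison that chose the families, so all 4 values are given as a description. Slc38a1 is among the 4, so the choice of the families fixed part of that count too. The next members downward were Slc1a2, a glial glutamate carrier, at -1.82 ± 1.38 and Slc38a10 at -0.27 ± 0.26. In all, 21 of 27 members were fitted higher, a share of 77.8% where 56.3% of all genes were, and 6 lower, where 43.7% were, with a median of 0.40 against 0.08 over all genes. All 27 interaction values share the same 17 cultures, so the count is a description. All 7 osteoblast markers tested had negative values (median -1.81), as did all 9 mitochondrial transcripts (median -0.96). Negative too were all 10 Schwann cell markers (median -3.92), all 8 cell-cycle genes (-0.54) and 8 of 9 chondrocyte markers (-2.68). All 14 macrophage markers had positive values (median 2.22), and the endothelial, smooth muscle, stromal and adipocyte lists were more mixed. The part of these lists in the transporter values was not tested.

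Atf4 and genes linked to it, called amino acid response genes here, made a list of 43 that includes none of the transporters. Of the 43, 42 were tested. What moved these genes, amino acid supply or other conditions, was not tested. In Het 12M against WT 12M, 39 of the 42 had a positive difference, where 55.7% of all genes did. The median over the list was 0.49 on the log2 scale, against 0.05 over all genes. Of the 39 genes, 11 had an unadjusted p below 0.05, where 3.42% of all genes stood past that level upward. In WT 12M against WT 3M, 37 were fitted lower, where 46.2% of all genes were, with a median of -0.42 against 0.04. Of the 37 genes, 11 had an unadjusted p below 0.05, where 3.54% of all genes stood past it downward. The count of adjusted p below 0.05 was 0 in edgeR in both comparisons, which share the WT 12M cultures. In Het 12M against Het 3M the median was 0.14, against 0.07 over all genes, with 29 of 42 fitted higher, where 57.7% of all genes were. All 42 genes were measured in the same cultures, so these counts are descriptions.

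Atf4 itself averaged 124 ± 22.9 CPM in Het 12M and 91.1 ± 18.6 CPM in WT 12M (SD, n = 6 and 4), and 122 ± 39.1 CPM in Het 3M and 169.6 ± 59.9 CPM in WT 3M (SD, n = 3 and 4). Its log2 difference was -0.90 ± 0.27 (SE; adjusted p = 0.555, edgeR) in WT with age and 0.45 ± 0.24 (SE) between genotypes at 12 months. Vldlr, a lipoprotein receptor known as an ATF4 target, averaged 21.9 ± 6.65 CPM in WT 12M and 77.4 ± 28.6 CPM in WT 3M (SD, n = 4 each), a log2 difference of -1.82 ± 0.45 (SE; adjusted p = 0.404, edgeR). Upward with age in WT, Vars, the valyl-tRNA synthetase, and the secreted glycoprotein Stc2 had log2 differences of 0.35 ± 0.32 and 0.72 ± 0.73 (SE). Ppp1r15a, which restores translation by guiding dephosphorylation of eIF2α, averaged 91.4 ± 42.3 CPM in Het 12M and 42.0 ± 11.3 CPM in WT 12M (SD, n = 6 and 4). Cth, which makes cysteine, averaged 10.4 ± 3.22 CPM in Het 12M and 4.69 ± 1.30 CPM in WT 12M (SD, n = 6 and 4). Their log2 differences were 1.12 ± 0.37 and 1.15 ± 0.38 (SE; adjusted p = 0.397 for both, edgeR). Without S6, S9 and S15 the count past an unadjusted p of 0.05 was 23 of 42 between genotypes at 12 months and 14 with age in WT. Over all 14687 genes tested there, 1745 and 2203 stood past that level in either direction, also more than with all cultures.

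**Figure D4:**
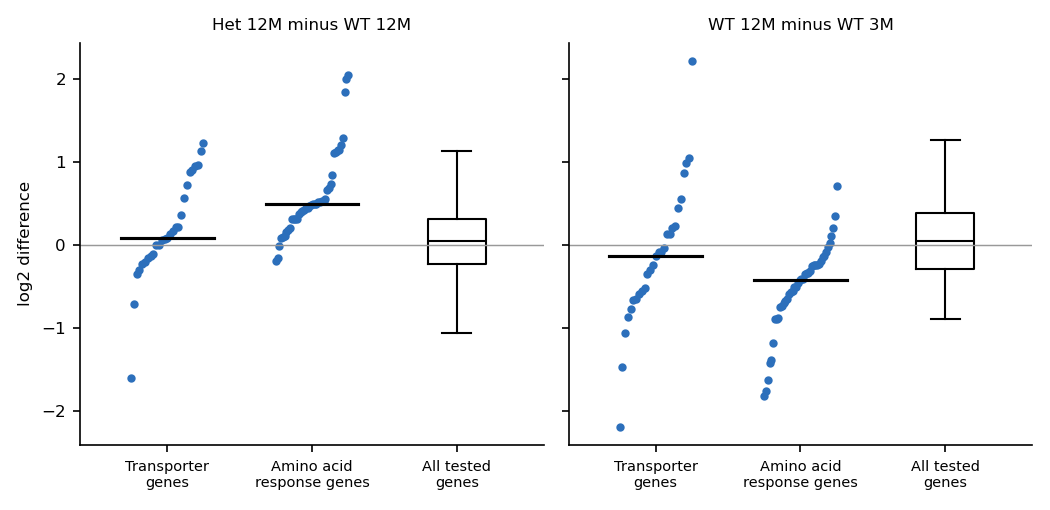
Fitted log2 differences of the 27 tested transporter genes and of 42 amino acid response genes, 1 point per gene in rank order with a black line at the median, beside a box for all 14897 tested genes with whiskers at the 5th and 95th percentiles. Medians of the response genes lie at 0.49 in Het 12M minus WT 12M and at -0.42 in WT 12M minus WT 3M.

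The other pathway lists held counts of 0 at an adjusted p below 0.05 in edgeR in every comparison. Among 19 tested carriers of other families, Slc6a17, a vesicular neutral amino acid carrier, averaged 6.23 ± 2.09 CPM in Het 12M and 15.7 ± 4.98 CPM in WT 12M (SD, n = 6 and 4). It was the 1 carrier of that list with an unadjusted p below 0.05 at 12 months, where 8.34% of all genes were past that level, so the count is no higher than the background. Among 39 genes of amino acid sensing by mTORC1, 4 were past that level upward and 2 downward at 12 months, where 3.42% and 4.92% of all genes were. Rragc, a Rag GTPase that docks mTORC1 on the lysosome, had a log2 difference of 0.77 ± 0.28 (SE) and its relative Rragd 2.97 ± 1.13. Rragc averaged 149.8 ± 84.1 CPM in Het 12M and 88.16 ± 4.26 CPM in WT 12M (SD, n = 6 and 4). Rragd averaged 11.05 ± 20.86 CPM in Het 12M and 1.41 ± 1.40 CPM in WT 12M (SD, n = 6 and 4). The Het 12M SD of Rragd was thus larger than its mean, so its difference rests unevenly on the cultures. Castor2, an arginine sensor relative, had a log2 difference of -0.43 ± 0.18 and Mtor -0.39 ± 0.17 (SE). Among 24 genes of glutamine and glutamate metabolism, 3 were past it downward, where 4.92% of all genes were, and 0 upward at 12 months, led by Gfpt2, an enzyme of the hexosamine pathway, at -1.31 ± 0.33. In WT with age, 2 of the 24 were past it downward, where 3.54% of all genes were. Among them was Gclc, the catalytic subunit of the first enzyme of glutathione synthesis, at -1.49 ± 0.47. Among 19 tested genes of serine, one-carbon and arginine metabolism, P4ha1, a collagen prolyl hydroxylase subunit, averaged 466.5 ± 125 CPM in Het 12M, 252 ± 39.1 CPM in WT 12M, 517 ± 195 CPM in Het 3M and 682 ± 222 CPM in WT 3M (SD, n = 6, 4, 3 and 4). Its log2 difference in WT with age was -1.43 ± 0.31 (SE; adjusted p = 0.375, edgeR).

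ATF4 dimers are known to bind the composite C/EBP-ATF element, and 29 of the 39 transporter genes had an entry in RefSeq's table of promoters (GRCm38.p6, 250 bases before to 50 after a start). The letters TGATGCAA, on either strand, were present in 294 of 32851 windows of that table, or 0.895%. Among the 39 windows of the transporter genes, 4 held them, or 10.3%, from 3 genes. Slc7a11 held 2 matches, 66 and 47 bases before the start on opposite strands. Slc1a4 held 1, 4 bases before its start, and Slc7a7 held 1 site that lies in 2 of its windows, 1 and 243 bases before their starts. The second of these windows is the one shown. The E-box CACGTG, a palindrome, was present in 7.15% of all windows and in 6 of the 39, from Slc1a6, Slc1a7, Slc36a1, Slc38a5, Slc38a7 and Slc7a14. A single window with TGATGCAA is shown for each of the 3 genes that hold it, 5′ to 3′ on the strand of the gene with the matched letters in capitals. All lie on the minus strand of the genome, at chr3:50443564-50443863 for Slc7a11, chr11:20332664-20332963 for Slc1a4 and chr14:54417653-54417952 for Slc7a7.
Slc7a11: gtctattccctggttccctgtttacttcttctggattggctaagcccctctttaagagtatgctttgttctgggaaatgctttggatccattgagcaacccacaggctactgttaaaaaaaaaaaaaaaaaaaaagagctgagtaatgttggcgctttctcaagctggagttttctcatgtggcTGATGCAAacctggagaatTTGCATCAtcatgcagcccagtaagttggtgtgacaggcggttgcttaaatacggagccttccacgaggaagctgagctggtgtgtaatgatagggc
Slc1a4: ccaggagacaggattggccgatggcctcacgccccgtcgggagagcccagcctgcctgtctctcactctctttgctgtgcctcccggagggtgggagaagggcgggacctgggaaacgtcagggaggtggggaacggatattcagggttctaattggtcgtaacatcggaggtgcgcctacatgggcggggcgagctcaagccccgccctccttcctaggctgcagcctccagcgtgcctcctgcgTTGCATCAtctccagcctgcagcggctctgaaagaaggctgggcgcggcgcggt
Slc7a7: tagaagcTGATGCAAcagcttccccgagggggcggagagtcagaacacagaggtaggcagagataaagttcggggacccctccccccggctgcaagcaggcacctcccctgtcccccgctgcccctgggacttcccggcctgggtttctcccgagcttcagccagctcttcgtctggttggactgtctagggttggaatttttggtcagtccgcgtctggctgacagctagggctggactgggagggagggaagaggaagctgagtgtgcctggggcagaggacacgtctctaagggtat
Of these genes, Slc7a11 had the values given above in the 4 groups. Slc1a4 averaged 84.3 ± 25.7 CPM in Het 12M and 80.1 ± 3.98 CPM in WT 12M (SD, n = 6 and 4), and 101 ± 37.4 CPM in Het 3M and 127 ± 58.9 CPM in WT 3M (SD, n = 3 and 4). Slc7a7 averaged 18.2 ± 11.2 CPM in Het 12M and 17.1 ± 3.85 CPM in WT 12M, with S9 at 38.2 CPM. The 3 genes thus had unlike values over the groups, and no entry was found for 10 transporters, among them Slc38a1 and Slc7a5.

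Light chains were set against the heavy chain Slc3a2 over the 17 cultures on log2 CPM, in 5 pairs, with permutation tests. With Slc7a8, a neutral amino acid exchanger, Pearson's r was 0.58 (p = 0.0159, adjusted p = 0.0782, permutation) and Spearman's rho 0.47 (p = 0.0575, adjusted p = 0.144, permutation). With Slc7a6, which exchanges cationic for neutral amino acids, r was -0.52 (p = 0.0313, adjusted p = 0.0782, permutation) and rho -0.57 (p = 0.0185, adjusted p = 0.0926, permutation). Without WT 12M S13 and Het 3M S14, the 2 cultures farthest from the median of Slc3a2, r was 0.54 and -0.58. For Slc7a5, the light chain with the highest level, r was 0.27 (p = 0.304, adjusted p = 0.410, permutation) and rho 0.13 (p = 0.604, adjusted p = 0.604, permutation). Without the same 2 cultures r was -0.19, so the positive value rests on them. For Slc7a7 and Slc7a11 r was 0.25 (p = 0.328, permutation) and 0.15 (p = 0.573, permutation), with rho of 0.20 (p = 0.451, permutation) and 0.17 (p = 0.512, permutation). None of the 5 pairs had an adjusted p below 0.05. Centred on group means, r was 0.56 for Slc7a8, -0.50 for Slc7a6 and 0.19 for Slc7a5. Leaving out Het 12M S9 gave r of 0.47 for Slc7a8.

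The culture with the most macrophage transcripts also held the highest levels of several carriers. Het 12M S9 had 111 CPM of Slc7a8, against 0.850 to 25.4 CPM in the other Het 12M cultures. Across all 17 cultures Slc7a8 was at most 4.04 CPM in the 6 with a macrophage marker sum of 272 CPM or less, and between 5.19 and 28.1 CPM in the 10 with a sum of 676 to 2986 CPM. S9 also held the highest values of Slc36a1, Slc7a7, Slc38a6, Slc38a7, Slc38a9 and Slc3a2, at 70.9, 38.2, 44.0, 65.9, 27.3 and 326 CPM. Among the defining markers, Lyz2 stood at 30062 CPM and Ptprc at 215 CPM in S9. In the 3 cultures with the lowest macrophage sums, Het 12M S15, WT 12M S6 and WT 12M S13, Slc7a7 had 7.65, 21.4 and 18.3 CPM. Het 12M S15, low in mitochondrial and stromal transcripts, held the lowest value of its group in 19 of 27 members, and its members summed to 1091 CPM, against 1340 to 1928 CPM in the other cultures. WT 12M S6, rich in Schwann cell markers, held the lowest value of its group in 13 of 27 members and the highest in 6. Het 3M S14, in a group of 3 cultures, held the lowest value in 13 and the highest in 12. Since S8 and S10 of that group were the most alike of all pairs, these counts do not mark S14 alone as unusual.

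**Figure D5:**
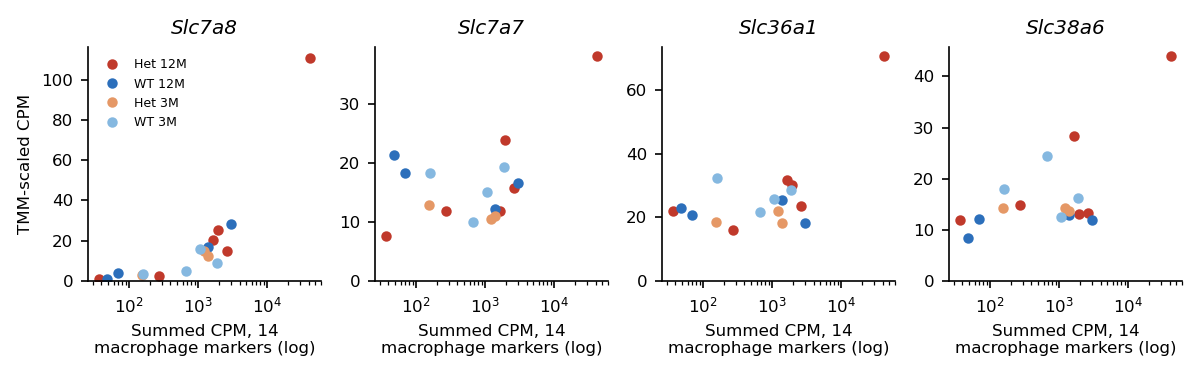
TMM-scaled CPM of Slc7a8, Slc7a7, Slc36a1 and Slc38a6 against the summed CPM of 14 macrophage markers on a log axis, with 1 point per culture coloured by group. Het 12M S9, at 42349 CPM of markers, lies at the upper right of each panel, and Slc7a8 is at most 4.04 CPM in the 6 cultures with the lowest sums.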

How the data were processed

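RNA of 17 cultures was sequenced with an unstranded TruSeq RNA v2 kit, per the labels' protocols. The authors deposited raw read counts per Entrez gene, made with featureCounts of the Subread package on mm10, per the submitters' processing notes; the rule for reads with several matches is not given in the sources used here. The 4 technical replicates of each S number were summed. Symbols were found for 25275 gene IDs, and the 1904 others held 0.573% of counts. Depth was 13687876 to 28597221 counts.

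Counts were scaled by TMM, filtered with filterByExpr and tested over 14897 genes with edgeR 4.0.16 (quasi-likelihood, robust, R 4.3.3) in 1 fit of the 4 groups, with Benjamini-Hochberg adjustment and a threshold of 0.05. No sex term was used, since sex-linked transcripts went against labels. The common biological coefficient of variation was 0.512. Fold changes are log2. DESeq2 1.42.0, limma 3.58.1 (voom with quality weights), other scalings, filters, covariates and left-out cultures were alternatives. Correlations used 100000 permutations (scipy 1.17.1). Scripts were tested on simulated counts. The members and lists were chosen with earlier results of these data known. Members were named by rule: Slc38a1, the highest of each family per kilobase, and in each comparison the 3 with the smallest p in each direction (for Het 3M minus WT 3M, the 3 largest differences among those with a mean of at least 1 CPM). Of each pathway list, genes were named from the 2 with the smallest p in a direction, and Atf4 was added as the factor of its list. Exon lengths, strands and overlaps came from GENCODE M21, and gene coordinates from RefSeq. A planned comparison of protein sequences was not run. Groups held 3 to 6 cultures by their labels, where the design text speaks of 3 each. The values of 1 gene of a pathway list are not reported here.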

Additional observations from a re-analysis of the deposited data

Results flagged for a closer look

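Slc7a8 in Het 12M S9, at 111 CPM, and Slc36a1 in the same culture, at 70.9 CPM, each stood far above the 5 other Het 12M cultures. The gap to the next culture was 0.777 of the group's range for Slc7a8 and 0.713 for Slc36a1. Of 51 groups of 4 to 10 cultures examined for the named members 2 were so marked, where chance marks about 1 in 20. S9 also held 42349 CPM of macrophage markers, whose part in these values was not tested.

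Slc1a1 was lower in each Het culture than in each WT culture at 12 months and higher in each Het than in each WT culture at 3 months. The interaction was -3.19 on the log2 scale (adjusted p = 0.709, edgeR), so the difference between the ages did not pass the test. Its 3M values belong to the comparison that chose the families.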

How the results depend on the processing

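Calls depended on the test. The quality weights of voom ran from 0.118 for Het 12M S15 to 8.88 for Het 3M S8, so its calls rest unevenly on the cultures. For the genotype by age interaction, DESeq2 called 35 genes, voom with quality weights 885, and edgeR without 3 cultures that stood apart (WT 12M S6, Het 12M S15 and S9) called 10. For Het 12M minus WT 12M DESeq2 called 106 and voom 169, for WT 12M minus WT 3M 53 and 1481 (2 without the 3 cultures), for Het 12M minus Het 3M 1 and 1, and for Het 3M minus WT 3M voom called 1279. Of the transporters voom called 1 in the interaction, 1 in Het 12M minus WT 12M, 1 in Het 3M minus WT 3M (from which nothing is read, as it chose the families) and 3 in WT 12M minus WT 3M, where DESeq2 called 1. Transporters at an unadjusted p below 0.05 in Het 12M minus Het 3M numbered 2 in DESeq2, 4 in voom, 1 with a Y-linked covariate and 1 without the 3 cultures. All genes at that level numbered 734, 1742, 366 and 481 in the same settings. Transporters at that level numbered 2 in Het 12M minus WT 12M with those groups fitted alone, where 732 of all genes did. In WT 12M minus WT 3M there were 8 in voom and 7 without the 3 cultures, where all genes numbered 4116 and 2203. Without the 3 cultures 6 transporters did not overlap in Het 12M minus WT 12M, where 10.3% of all genes did not. Amino acid response genes at an unadjusted p below 0.05 numbered 27 in voom, 19 with labelled sex, 21 with a Y-linked covariate and 23 without the 3 cultures between genotypes at 12 months, and 28 in voom with age in WT. All genes at that level in either direction numbered 3033, 1293, 1180, 1745 and 4116 in the same settings. Slc7a4 in Het 12M minus Het 3M was -0.20 without the 3 cultures; the causes were not tested.

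All genes at an unadjusted p below 0.05 numbered 3303 (interaction), 1742 (Het 12M minus Het 3M), 3033 (Het 12M minus WT 12M), 3567 (Het 3M minus WT 3M) and 4116 (WT 12M minus WT 3M) in voom. With 2 groups alone they numbered 297 in Het 12M minus Het 3M, 732 in Het 12M minus WT 12M and 767 in Het 3M minus WT 3M. Without the 3 cultures they numbered 1955 in the interaction, 633 in Het 3M minus WT 3M and 2203 in WT 12M minus WT 3M.

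Leaving out each culture in turn gave 0 to 2 genes called in Het 12M minus WT 12M and 0 to 1 in WT 12M minus WT 3M. Amino acid response genes ranged from 8 to 17 and from 6 to 13 in these comparisons. Transporters at an unadjusted p below 0.05 ranged from 1 to 6 in the interaction, 0 to 2 in Het 12M minus Het 3M and 1 to 5 in Het 12M minus WT 12M. All genes at that level ranged from 492 to 1553, from 276 to 870 and from 954 to 1943 in the same order. In WT 12M minus WT 3M all genes ranged from 713 to 2136. Transporters not overlapping ranged from 0 to 2 in Het 12M minus Het 3M and 1 to 2 in Het 12M minus WT 12M. With every culture kept, 1.91% and 1.32% of all genes did not overlap. Pearson's r of Slc3a2 ranged from 0.0511 to 0.369 with Slc7a5 and from 0.00407 to 0.345 with Slc7a7.

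No paired analysis was possible because the replicate numbers that groups share in the labels mark technical replicates of 1 culture, and no S number occurs in 2 groups. The 12 transporters that did not pass the filter had at most 94 reads over all cultures, and no differences are given for them. Slc3a1 passed the filter with 78 reads, so the read total alone did not decide this.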
